A study of Mus musculus with 2 samples.

Results

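The sirtuins and the enzymes that feed them were followed in mouse primary hepatocytes, liver cells taken from the animal into culture, with and without knockdown of the histone demethylase JMJD3, encoded by Kdm6b. The 10 genes were chosen by name, with earlier results of these data known: Sirt1 to Sirt7, and Nampt, Nmnat1 and Nmnat3 of NAD salvage. All 10 were found among the 23284 genes counted. The control group was 1 library from C57BL/6 hepatocytes given control lentivirus, and the knockdown group was 1 library from C57BL/6 hepatocytes given lentivirus with an shRNA against JMJD3. Each library came from cells pooled from 5 mice, whose age is not given in the sources used here. Virus was added 24 h after plating for 48 h, and both cultures, controls included, then had 5 mM glucose and 10 µM forskolin for 6 h to imitate fasting. Serum is listed at 10% for both libraries, and the step it belongs to is not given here. No library without virus or without forskolin was analysed here.

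Sirtuins remove acetyl and other acyl groups from lysines of proteins and use up NAD each time they act, so they work only where NAD is supplied. Each releases nicotinamide, which NAMPT turns into nicotinamide mononucleotide, the rate-limiting step of salvage. The NMNAT enzymes then complete NAD, NMNAT1 in the nucleus and NMNAT3 reported in mitochondria. In liver, sirtuins are best known for deacetylating regulators of fasting metabolism in the nucleus and enzymes of fat and amino acid use in mitochondria.

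The control library held 11099562 counts and the knockdown library 18334366, so the knockdown library was 1.65 times as deep. Kdm6b, the target of the shRNA, fell from 1019 counts in control to 598 in knockdown, or 90.7 and 33.0 CPM (counts scaled to library size), a ratio of 0.364 (0.329 to 0.403). Hepatocyte markers had counts in both libraries, and 6 of 10 were at least 1.5-fold lower in knockdown. Cps1 went from 223 CPM in control to 3.87 CPM in knockdown, and Apoa1 was low in both, at 3.29 and 2.93 CPM. Albumin (Alb) was at 1519 and 794 CPM, while the lipoprotein gene Apob was higher, at 1300 and 2229 CPM. The 10 hepatocyte markers summed to 12049 CPM in control and 8554 CPM in knockdown. The largest difference in that sum was of Fgb, at 3987 and 846 CPM, while Trf was at 4282 and 4254 CPM. The 7 cholangiocyte markers summed to 8099 and 8432 CPM, nearly all of it Spp1 at 7795 and 8011 CPM. Of the 6 cholangiocyte markers at 1 CPM or more, 3 were at least 1.5-fold higher in knockdown and 0 had a ratio below 1. Krt7 stood at a log2 ratio of 1.65, Krt19 at 0.60 and Sox9 at 0.59, with a median of 0.43 for the list against -0.78 for the hepatocyte markers. Sums were at most 27.0 CPM for 7 macrophage markers, 207 and 197 CPM for 8 stellate cell and fibroblast markers, and 52.3 and 47.1 CPM for 8 endothelial markers. By the same measure 3 of 7 stellate and fibroblast markers were lower and 0 higher, and 2 of 7 endothelial markers were lower and 1 higher. The macrophage genes Clec4f and Timd4 and the T cell gene Cd3e had 0 counts in both, and 6 blood and lymphoid markers summed to 2.58 and 2.37 CPM. The part of these shifts in the values below was not tested, and in a bulk sample fewer cells of a type and less RNA per cell cannot be told apart.

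Of the 10 genes, 4 were lower in the knockdown library and 0 higher by the rule used throughout. That rule asks for a ratio at least 1.5-fold from 1 and a 95% interval of the counts that excludes 1. A gene was measured when its libraries averaged 1 CPM or more, and across all 12607 such genes 12.8% passed as lower and 15.3% as higher. All 10 genes were measured. The 4 lower genes were Sirt3, Sirt4, Sirt7 and Nampt. The other 6 were Sirt1, Sirt2, Sirt5 and Sirt6, with ratios from 0.988 to 1.04, and Nmnat1 and Nmnat3, whose intervals lay below 1 but whose ratios fell short of 1.5-fold. The median log2 ratio of the 10 genes was -0.51, against -0.00 over all measured genes. Longer genes tended to have higher ratios across all measured genes, and with that dependence on exon length taken out the median of the 10 was -0.32 and the same 4 genes passed. Sirt3 was then at -0.69, and Sirt4 at -0.61 and Sirt7 at -0.60 were only just past the 1.5-fold line. The 10 genes were chosen with earlier results of these data known, so their standing against all measured genes is a description and not a test. With 1 library per group no difference here has a replicate check, and the intervals cover counting error alone.

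**Figure D1:**
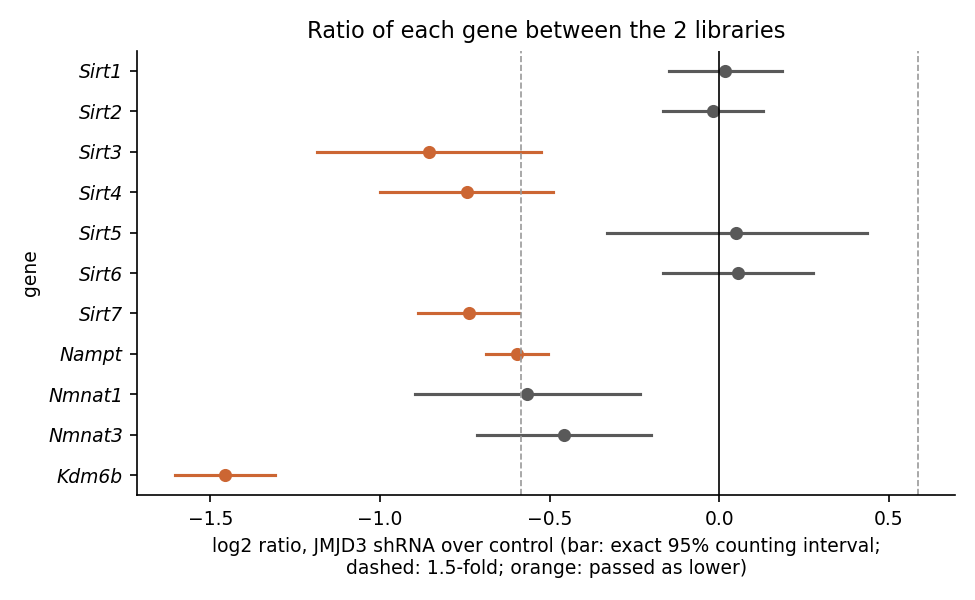
Each point is the log2 ratio of the JMJD3 shRNA library over the control library for 1 gene, with Kdm6b at the bottom; bars are exact 95% counting intervals and dashed lines mark 1.5-fold. Sirt3, Sirt4, Sirt7 and Nampt (orange) lie below the left line, Nmnat1 and Nmnat3 just right of it, and Sirt1, Sirt2, Sirt5 and Sirt6 at 0.

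Nampt, the gate of the salvage route, was the member with the most counts. The control library had 1913 and the deeper knockdown library 2039. Its level was 170 CPM in control and 113 CPM in knockdown. The log2 ratio was -0.60 (-0.69 to -0.51), a ratio of 0.662, which places it just past the 1.5-fold line. With scaling by the median of ratios its log2 ratio was -0.58 and it no longer passed. In mm9 Nampt lies on the plus strand of chromosome 12 from 33505200 to 33538234, with 11 exons in the files. The NMN adenylyltransferase Nmnat1 stood just short of that line. It had 148 and 161 counts, 13.2 CPM in control and 8.89 CPM in knockdown, and a log2 ratio of -0.57 (-0.90 to -0.23). Scaled by library total alone it was at -0.60 and passed. Nmnat3, the mitochondrial form, had 237 and 278 counts, 21.1 and 15.4 CPM, and a log2 ratio of -0.46 (-0.71 to -0.20). From control to knockdown the log2 ratio of Nampt to Nmnat1 changed by -0.03 (-0.36 to 0.30) and that of Nampt to Nmnat3 by -0.14 (-0.40 to 0.13), a comparison inside each library that needs no scaling. With the trend on exon length taken out, Nampt stood at -0.74 (-0.83 to -0.65), Nmnat1 at -0.26 (-0.59 to 0.07) and Nmnat3 at -0.37 (-0.63 to -0.11). The intervals of Nampt and Nmnat1 then did not overlap, and that of Nmnat1 included 0. Counts of the 3 genes together had a log2 ratio of -0.58 (-0.66 to -0.50).

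All 10 genes matched RefSeq start regions, with 13 listed starts between them, and the window examined was the 250 bases before each. Of these, runs outside annotated exons are shown for 3 genes, since E-boxes, the sites of the clock factors CLOCK and BMAL1, are known from Nampt and its NAD cycle. Sequences are from RefSeq on GRCm38.p6, 5′ to 3′ on the strand of the gene, and capitals mark an E-box (CACGTG) or an ETS motif (CCGGAAG) on either strand. The Nampt run covers chr12:32820085-32820334 on the plus strand, its whole window. The Sirt1 run covers chr10:63339051-63339285 on the minus strand, and is shown beside Nampt as a gene of the same NAD cycle whose level did not differ beyond counting error. The Nmnat1 run covers chr4:149485203-149485228 on the minus strand, a 26-base stretch before the second of its listed starts.
Nampt: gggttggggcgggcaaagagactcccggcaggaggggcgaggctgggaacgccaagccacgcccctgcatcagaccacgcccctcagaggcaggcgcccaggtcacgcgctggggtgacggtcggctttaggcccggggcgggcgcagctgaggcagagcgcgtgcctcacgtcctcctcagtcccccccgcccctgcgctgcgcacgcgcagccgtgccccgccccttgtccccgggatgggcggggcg
Sirt1: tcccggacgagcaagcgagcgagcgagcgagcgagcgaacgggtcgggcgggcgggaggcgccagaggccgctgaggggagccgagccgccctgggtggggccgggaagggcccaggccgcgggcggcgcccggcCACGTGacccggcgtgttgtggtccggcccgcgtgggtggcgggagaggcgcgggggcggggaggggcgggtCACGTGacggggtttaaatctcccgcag
Nmnat1: ggattcgcgcaCTTCCGGctgtgtgg

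The Nampt window held 27 CpG dinucleotides and had a GC content of 75.6%, and that of Sirt1 held 39 with 79.2%. Over all 32851 windows of the same length the median was 6 CpG and 52.4% GC. Motifs were sought on both strands. An E-box was found in 1 of the 13 windows, that of Sirt1, which had 2 of them, against 6.02% of all windows. The ETS motif was in 5 of the 13 windows, from the 4 genes Sirt3, Sirt6, Sirt7 and Nmnat1, against 6.91% of all windows. The Nmnat1 windows overlap and share the same site. The Sirt3 and Sirt7 windows with the motif lie wholly in annotated exons. The Sirt6 site also lies in an annotated exon, in a window with 231 of its 250 bases exonic. The full cyclic AMP response element (TGACGTCA), the site of the forskolin-responsive factor CREB, was in 0 of the 13 windows of the 10 genes and in 1.55% of all. The GC-box (GGGCGG), bound by SP1, was in 10 of the 13 windows, from 9 genes, and in 32.7% of all windows. The palindromic NRF1 motif was in 1 of the 13 windows, from Sirt6, and 0.782% of all windows, and the NF-Y motif (CCAAT) in 4 of the 13 and 33.8% of all. The window of Sirt4 held none of these motifs. These matches describe letters in a short window and not bound sites. For Sirt5 and Nmnat3 the bases after the listed start were found in no annotated transcript of the gene, and their windows are still counted here.

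Among the mitochondrial sirtuins, Sirt3 and Sirt4 were lower and Sirt5 was not. SIRT3 is the main deacetylase of the mitochondrial matrix and acts on enzymes of fat oxidation. Counts of Sirt3 were 165 in control and 147 in knockdown, that is 14.7 and 8.12 CPM, although the knockdown library was deeper. Its log2 ratio of -0.85 (-1.19 to -0.53) was the lowest of the 10 genes, and 7.85% of measured genes had a lower ratio. Sirt4, whose product restrains glutamate dehydrogenase and malonyl-CoA decarboxylase, had 262 and 252 counts, or 23.3 and 13.9 CPM. The log2 ratio of Sirt4 was -0.74 (-0.999 to -0.49). Sirt5, whose product removes succinyl and malonyl groups and acts on carbamoyl phosphate synthetase, had 93 and 155 counts, the fewest in control. Its levels were 8.27 and 8.56 CPM and its log2 ratio was 0.05 (-0.33 to 0.44). Inside each library, and so free of scaling, the log2 ratio of Sirt3 to Sirt5 changed by -0.90 (-1.39 to -0.41) and that of Sirt4 to Sirt5 by -0.79 (-1.24 to -0.35). Sirt3 spans chr7:148049562-148068208 and Sirt4 chr5:115928019-115934493 in mm9, both on the minus strand. The 3 genes summed to 520 and 554 counts, with a log2 ratio of -0.60 (-0.77 to -0.42). Sirt3 shares 69 of its 1575 exonic bases with Ric8 on the other strand, and reads there could not be assigned without strand.

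Among the nuclear sirtuins Sirt7 was lower, and Sirt1 and Sirt6 were not. SIRT7 works in the nucleolus and at chromatin. Counts of Sirt7 were 752 in control and 726 in knockdown, or 66.9 and 40.1 CPM. Its log2 ratio was -0.74 (-0.89 to -0.59). Sirt7 spans chr11:120479686-120486316 in mm9 (minus strand), with 10 exons. SIRT1, the fasting-linked deacetylase of PGC-1alpha, FOXO factors and p53, is the best studied sirtuin in liver. Sirt1 had 483 and 788 counts, 43.0 and 43.5 CPM, and a log2 ratio of 0.02 (-0.15 to 0.18). Sirt6, whose product deacetylates histone H3 at glycolytic and lipid genes, had 273 and 457 counts, 24.3 and 25.2 CPM, and a log2 ratio of 0.06 (-0.16 to 0.28). The log2 ratio of Sirt7 to Sirt6 changed by -0.79 (-1.06 to -0.53) between the libraries, and that of Sirt7 to Sirt1 by -0.76 (-0.98 to -0.54). The mainly cytosolic Sirt2, known as a tubulin deacetylase, had 612 and 974 counts, 54.5 and 53.8 CPM, and a log2 ratio of -0.02 (-0.16 to 0.13). Of the 1863 exonic bases of Sirt2, 149 overlap Gm19897, which had 1 and 7 counts.

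**Figure D2:**
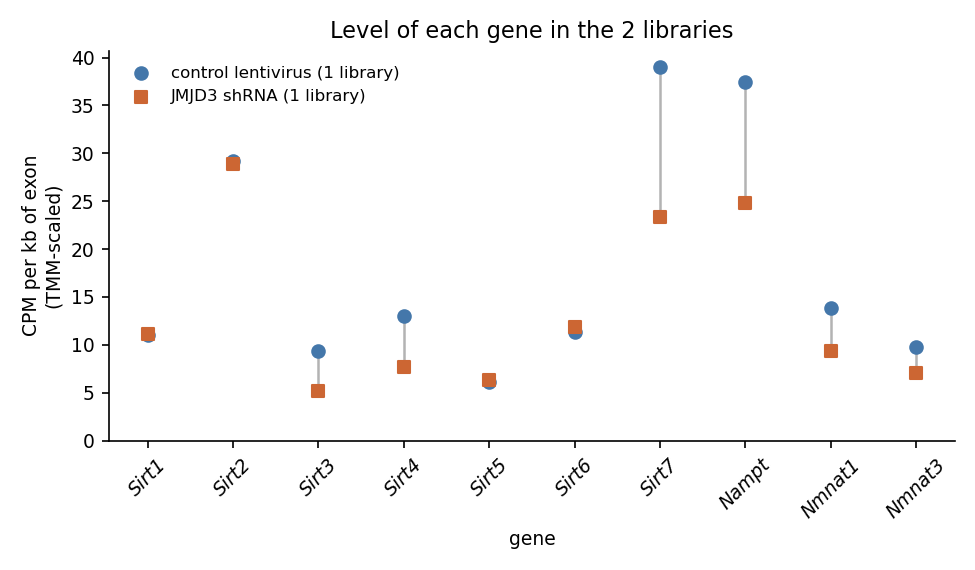
Each gene has a circle for the control lentivirus library and a square for the JMJD3 shRNA library, on a linear axis of TMM-scaled CPM per kb of exon. The gap is widest for Sirt7 (39.0 and 23.4) and Nampt (37.4 and 24.8), and the symbols overlap for Sirt1, Sirt2, Sirt5 and Sirt6.

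Levels of different genes were compared as CPM per kb of exon. In control Sirt7 stood first at 39.0, next to Nampt at 37.4, from which it did not differ beyond counting error. Sirt2 followed at 29.2. Nmnat1 at 13.8, Sirt4 at 13.0, Sirt6 at 11.4, Sirt1 at 11.0, Nmnat3 at 9.76 and Sirt3 at 9.32 formed a run in which no neighbours differed beyond counting error, and Sirt5 was lowest at 6.08. In knockdown Sirt2 stood first at 28.9, ahead of Nampt at 24.8 and Sirt7 at 23.4, and the last pair did not differ beyond counting error. Sirt6 at 11.8 and Sirt1 at 11.1 came next and were alike within counting error, above Nmnat1 at 9.32. Sirt4 at 7.74, Nmnat3 at 7.11, Sirt5 at 6.29 and Sirt3 at 5.15 closed the order, with no neighbours from Nmnat1 down that differed beyond counting error. The most abundant sirtuin per length was therefore Sirt7 in the control library and Sirt2 in the knockdown library. The level of Sirt7 was 1.33 times that of Sirt2 in control and 0.810 times in knockdown.

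As shares of the family, the 7 sirtuins divided differently in the libraries. Sirt7 made up 32.8% (30.9 to 34.7) of summed sirtuin counts per kb in control and 24.8% (23.2 to 26.3) in knockdown, with approximate 95% counting intervals. Sirt2 made up 24.6% (22.9 to 26.3) and 30.6% (29.0 to 32.2). Sirt3 went from 7.83% to 5.46% and Sirt4 from 10.9% to 8.20%, while Sirt1 went from 9.24% to 11.8%, Sirt6 from 9.57% to 12.5% and Sirt5 from 5.11% to 6.66%. By compartment, the mitochondrial members made up 23.8% (22.1 to 25.6) in control and 20.3% (18.8 to 21.8) in knockdown, and the nuclear members 51.6% (49.6 to 53.6) and 49.1% (47.4 to 50.8). Shares must sum to the whole, so a share can be higher in a library where the level of that gene is not. The family as a whole had a log2 ratio of -0.28 (-0.35 to -0.21) on 2640 and 3499 counts.

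**Figure D3:**
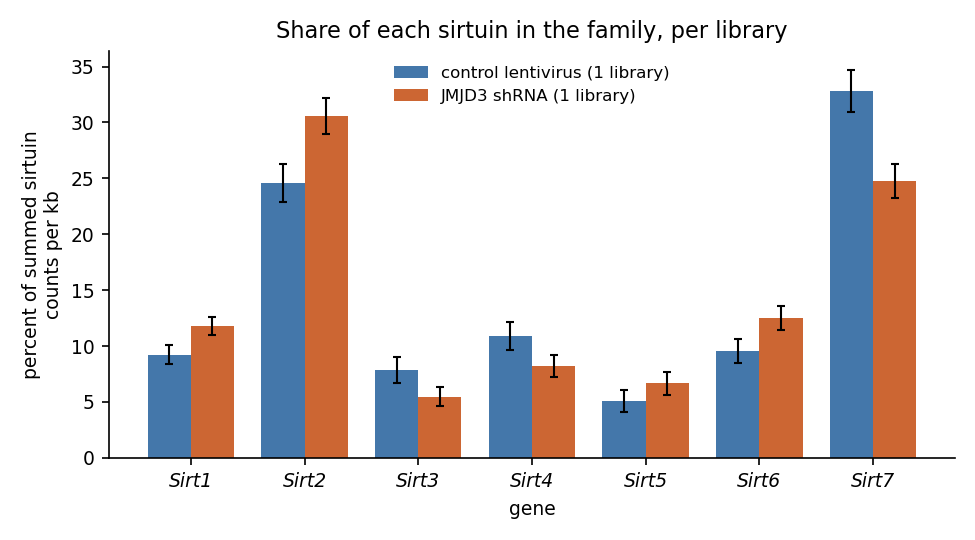
Bars give each sirtuin's percent of the summed counts per kb of the 7 sirtuins, starting at 0, in the control lentivirus and JMJD3 shRNA libraries; error bars are approximate 95% counting intervals. Sirt7 is the tallest bar in control (32.8%) and Sirt2 in knockdown (30.6%).

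The place of the genes among all measured genes shows that these were moderate differences. Between the lower and upper quartiles, measured genes had log2 ratios from -0.34 to 0.37 and the central 90% from -1.15 to 1.21. All of Sirt3, Sirt4, Sirt7, Nampt, Nmnat1 and Nmnat3 lay below the first of these ranges and inside the second. The share of measured genes with a lower ratio was 9.66% for Sirt4, 9.78% for Sirt7, 13.5% for Nampt and 14.4% for Nmnat1. It was between 49.0% and 54.8% for Sirt1, Sirt2, Sirt5 and Sirt6.

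**Figure D4:**
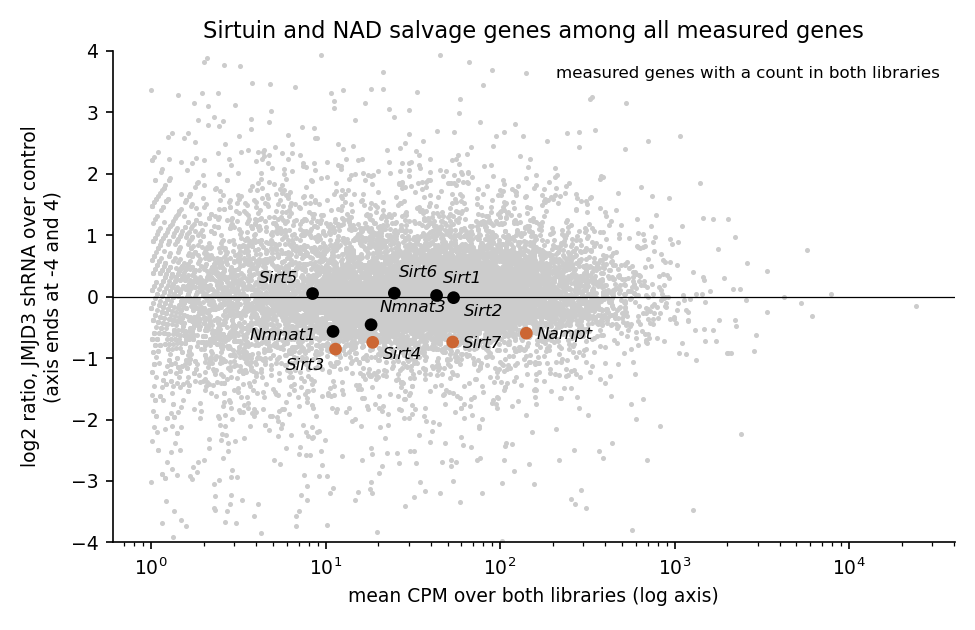
Grey points are measured genes with a count in both libraries, by mean CPM (log axis) and log2 ratio of JMJD3 shRNA over control; points beyond the ends of the vertical axis are not drawn. The 10 genes lie inside the grey cloud at mean levels from 8.42 (Sirt5) to 141 (Nampt), the 4 lower ones (orange) between -0.85 and -0.60.

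In the authors' deposited table, the same 4 genes had an adjusted p-value under 0.05, all with a negative fold. Among its 12838 genes, 11.8% had such a value with a negative fold and 14.6% with a positive fold. In the authors' deposited table the adjusted p-value was 0.00479 for Sirt7 at a log2 fold change of -0.74 and 0.00728 for Sirt3 at -0.85. In the authors' deposited table it was 0.0121 for Sirt4 and 0.0213 for Nampt. The authors' deposited table has 0.107 for Nmnat1 and 0.161 for Nmnat3, both with a negative fold. How these p-values were obtained without replicates is not given in the sources used here. They and the ratios above rest on the same 2 libraries, so the shared 4 genes are not separate support. Calls made by edgeR's exact test depended on the coefficient of variation assumed between samples, which these libraries cannot give. Assumed at 0.1, 4 of the 10 genes were called lower, against 11.7% of measured genes. Assumed at 0.2, 0 of the 10 genes were called, against 3.62% of measured genes called lower.

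Genes that lie close to the members gave a mixed picture. Sirt3 and the proteasome subunit gene Psmd13 point away from each other with starts 85 bp apart in the mm9 gene models. Psmd13 was at 130 and 98.5 CPM, a log2 ratio of -0.40 (-0.50 to -0.30), and did not pass as lower. Nmnat1 and Lzic also point apart, with starts 191 bp apart, and Lzic was at 46.1 and 60.9 CPM, a log2 ratio of 0.40 (0.25 to 0.56). The log2 ratio of Nmnat1 to Lzic changed by -0.97 (-1.32 to -0.61) between the libraries, and that of Sirt3 to Psmd13 by -0.45 (-0.79 to -0.12). Neither pair had equal ratios, and these neighbours with nearby starts differed from each other beyond counting error. Nfkbib, 228 bp from the start of Sirt2, was at -0.16 and Ankrd24, 932 bp from that of Sirt6, at -0.11, with intervals that included 0 for both. Pcyt2, a phospholipid synthesis gene 482 bp from Sirt7 and on the same strand, was lower at -0.94 (-1.08 to -0.80). Mafg, on the other side of Sirt7, was at 0.52, and Herc4, whose end lies 1124 bp from Sirt1, was lower at -0.67. All genes within 5000 bp were looked at, chosen after the members' values were seen.

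Along other routes to NAD 3 of 10 measured genes passed as lower and 0 as higher, and the median log2 ratio was -0.35. The lower genes were Tdo2 at 236 and 14.2 CPM (log2 -4.06), Acmsd at 6.14 and 1.60 CPM, and Kynu at 57.0 and 33.6 CPM, all enzymes of tryptophan breakdown. ACMSD leads intermediates away from NAD, while TDO2 and KYNU lead toward it. Naprt1, which starts NAD synthesis from nicotinic acid, was at -0.46, Qprt, which makes the nicotinic acid nucleotide from quinolinate, at -0.13, and Nadsyn1, the final amidating enzyme, at -0.25. Afmid was the highest of these at 0.57. The NAD kinase Nadk, at 222 and 218 CPM, had a log2 ratio of -0.02 (-0.09 to 0.05). Nmnat2, the remaining NMNAT gene, had 9 and 3 counts and was not measured, and Itgb1bp3, a riboside kinase gene now called Nmrk2, had 0 in both libraries. Haao had 1 and 3 counts and was not measured either. Nmrk1 and Nadk2 were also sought, but no counted gene was matched to them, so neither was assessed.

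Genes for the handling and clearance of NAD precursors had 3 of 7 lower and 1 higher. Mcart1, now called Slc25a51 and known as the mitochondrial NAD carrier, was at 290 and 99.7 CPM, a log2 ratio of -1.54 (-1.63 to -1.46). Nnmt, which methylates nicotinamide and so removes it from salvage, was at 240 and 83.5 CPM, a log2 ratio of -1.52 (-1.62 to -1.43). The aldehyde oxidases that oxidise methylated nicotinamide went apart, with Aox3 at -0.99 and Aox1 at 0.84. Both NNMT and NAMPT use nicotinamide, and the transcripts of both were lower. The nucleoside phosphorylase Pnp was at -0.48 and the NADH hydrolase Nudt12 at -0.55, neither passing.

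Among 19 genes listed as other NAD consumers, 5 passed as higher and 2 as lower, and the median was 0.32. The list includes Parg, whose product breaks down poly(ADP-ribose) and does not itself consume NAD, at 0.15. Parp8 was the highest at 1.53, followed by Tiparp at 16.9 and 40.2 CPM, Parp4 at 0.97, Tnks at 0.85 and Parp14 at 0.71. The lower genes were Sarm1, an NAD hydrolase best known from neurons, at -1.24 and Parp16 at -0.64. The main DNA damage polymerase Parp1 was at 105 and 103 CPM, a log2 ratio of -0.03 (-0.14 to 0.07). The tankyrase Tnks2 had the highest CPM of the list, 238 and 297, and Parp3 had the next highest mean CPM and a log2 ratio of 0.51, neither passing. Per kb of exon Parp3 was above Tnks2 in knockdown, at 51.3 against 45.8. Exons of Tiparp overlap another gene over 186 of 4154 bases, so its count is uncertain. The NAD glycohydrolase Cd38 was at 0.28 with an interval that included 0.

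**Figure D5:**
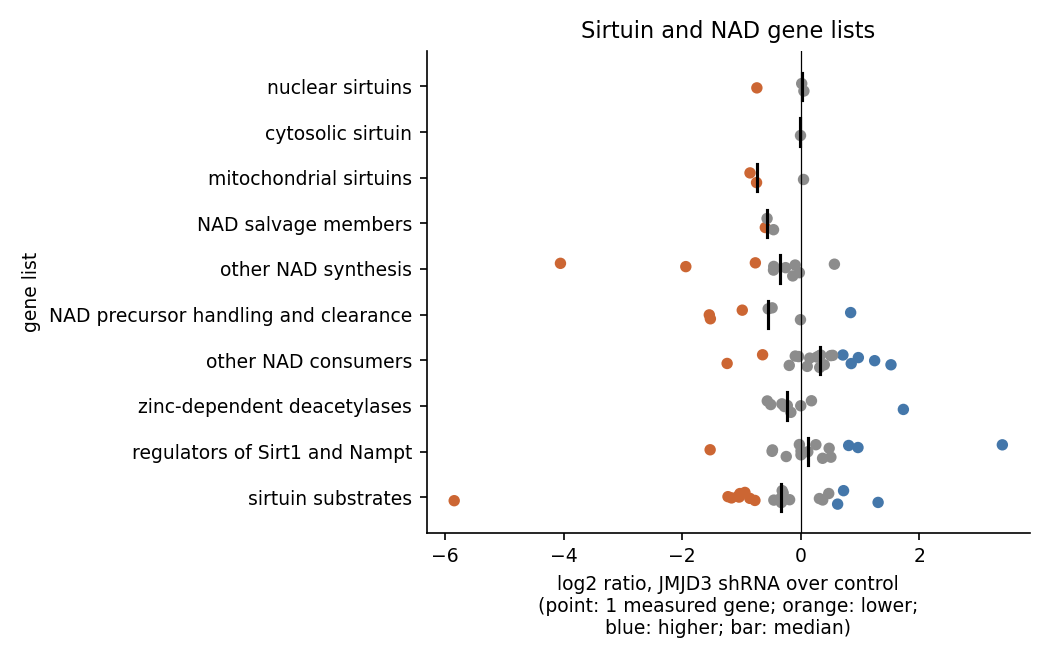
Each point is the log2 ratio of JMJD3 shRNA over control for 1 measured gene of the list on the vertical axis; orange passed as lower, blue as higher, and black bars are medians. The salvage genes lie between -0.60 and -0.46, and the other NAD consumers have their median at 0.32.

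The zinc-dependent histone deacetylases, which need no NAD, stood at a median of -0.23, with 0 of 10 measured genes passing as lower and 1 as higher. Hdac7 was higher, at 45.9 and 153 CPM (log2 1.73), and Hdac8 was the lowest at -0.56. The most abundant by mean CPM of the libraries, Hdac2 and Hdac3, had log2 ratios of -0.27 and -0.16. The difference between these enzymes and the sirtuins, with 3 of 7 lower, was not tested.

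Genes for regulators of Sirt1 and Nampt stood at a median of 0.12, with 1 of 15 passing as lower and 3 as higher. Arntl, which encodes BMAL1, was lower at 72.8 and 25.2 CPM, a log2 ratio of -1.53 (-1.70 to -1.36). Clock, its partner, was at 0.51 and did not pass, and the clock repressors Per2 and Nr1d1 were higher at 0.97 and 0.81. Cry1, another clock repressor, went the other way at -0.47 (-0.69 to -0.26) and did not pass. Hic1, which encodes a repressor of Sirt1 transcription, had 13 and 222 counts, a log2 ratio of 3.41 (2.60 to 4.34), the highest of the list, while Sirt1 itself stood at 0.02. 2610301G19Rik, now called Ccar2 and known as an inhibitor of SIRT1, was at 0.12 and the energy sensor Prkaa2 at -0.48.

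Genes for known sirtuin substrates stood at a median of -0.33, with 9 of 22 measured genes passing as lower and 3 as higher. Of the genes whose products SIRT1 deacetylates, Ppargc1a was lower at -1.04 and the cytosolic acetyl-CoA synthetase Acss2 at -1.17, while Trp53 and Foxo3 were higher at 0.72 and 1.31. For SIRT3, Idh2 at -0.29 and Acadl at -0.19 did not pass. For SIRT4, Glud1 was lower at 1791 and 880 CPM (log2 -1.02) and Mlycd at -0.77. For SIRT5, Cps1 had the lowest ratio of the list at -5.85, on 2505 and 70 counts, while Sirt5 itself stood at 0.05. The nuclear receptor genes Nr1h3 and Nr1h4 were lower at -0.86 and -0.94. Stat3 was lower at -1.06, Rela higher at 0.62, and Aldh2, second in mean CPM in the list, at -0.32.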

How the data were processed

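RNA was sequenced as 100 bp paired ends in 2 libraries, per the labels. The deposited counts are whole-number reads per gene from featureCounts 1.4.6-p4 on STAR alignments and UCSC mm9 gene models, per the file headers, with strand unused and no pair option recorded. Both reads of a pair may thus have been counted, in which case the counting intervals would be too narrow. The submitters' processing notes name Trimmomatic 0.36, STAR 2.5.3a and edgeR. The authors' deposited table gives log2 fold changes, average log2 CPM, p-values and adjusted p-values, whose test is not stated, per the file headers. Its fold has the sign of knockdown over control in 12600 of 12600 genes compared.

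Counts were scaled with TMM factors (edgeR 4.0.16, R 4.3.3). Ratios used no pseudocount, with exact conditional binomial 95% intervals (scipy 1.17.1). Shares of the family have intervals by the delta method. With 1 library per group the data hold no estimate of spread, so no p-value was used. As an alternative, calls were counted by edgeR's exact test at assumed coefficients of variation of 0.1, 0.2 and 0.4. The procedure was run on simulated counts with counting error alone. That run checks the calculation, and cannot check the spread between cultures, which it did not include. Named genes were the 10 members, Kdm6b, and in each list of NAD or sirtuin genes the 2 with the highest mean CPM, the highest and lowest ratio and those that passed. Cell type markers are given by counts and sums, with only some named; others were named after their values were seen. A gene of the substrate list that passed is not reported here by name. Members and lists were chosen with earlier results of these data known. Alternatives were scaling, filter, pseudocount, fold, halved counts, length trend, assumed spread and overlapping exons. The coordinates of gene models are mm9, and those of start regions GRCm38.p6.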

Additional observations from a re-analysis of the deposited data

How the results depend on the processing

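The number of the 10 genes passing as lower was 4 and moved to 0 with a fold of 2 in place of 1.5, against 6.19% of all measured genes. It moved to 0 and 0 with assumed coefficients of variation of 0.2 and 0.4, against 3.62% and 0.595% of all measured genes. With 0.1 it was 4, against 11.7%. Under the other alternatives it ranged from 3 to 6. It was 3 with scaling by the median of ratios, where Nampt dropped to -0.58, and 3 with Sirt2 and Sirt3 left out for overlapping exons. It was 5 with library totals or the upper quartile, where Nmnat1 joined, and 6 with the smaller fold tried, where Nmnat1 and Nmnat3 joined. Of all measured genes, 12.4% passed as lower with the median of ratios, 14.0% with library totals and 14.4% with the upper quartile. With the smaller fold 23.0% of all measured genes passed as lower. The count passing as higher was 0 under each alternative. The median of the 10 genes ranged from -0.56 to -0.32 and the summed mitochondrial sirtuins from -0.65 to -0.44, and no gene that passed changed sign. With the trend of the ratio on exon length removed, Nampt moved to -0.74 and Nmnat1 to -0.26, with an interval that included 0. Without length correction, Sirt1 made up 18.3% and 22.5% of sirtuin counts, and Sirt7 still led in control and Sirt2 in knockdown. Other scalings shifted the median of all genes by at most 0.05 on the log2 scale. No paired analysis was possible because each group has 1 library. Depth limits Sirt5 most, with 93 and 155 counts.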
